A study of Rattus norvegicus with 6 samples.

Results

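The genes described here are 10 circadian clock genes of the rat: Clock, Arntl, Per1, Per2, Per3, Cry1, Cry2, Nr1d1, Nr1d2 and Dbp. They were chosen by name, and all 10 were found among the 35362 gene rows of the deposited table, each in a single row. Levels are in RPKM, reads scaled to the length of the gene and to all reads assigned to genes. They can be compared between libraries and, as far as the deposited gene lengths hold, between genes. The cells are INS-1, an insulin-secreting line from a rat insulinoma. Retroviruses made from pMX-puro-Flag-Menin delivered a menin mutant to these cells, S487D in one group and S487A in the other, with 3 libraries each. Serine is replaced by aspartate, which is acidic, in S487D and by alanine in S487A. The study concerns the phosphorylation of menin under GLP-1 signalling, and the question here is how mRNA levels differ between cells with either mutant. Cells without a menin mutant were not analysed here. The labels give the same range of passages for both groups, and neither a time of collection nor a treatment that would synchronise the cells.

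The clock is a feedback loop of transcription. CLOCK and BMAL1, the product of Arntl, bind E-boxes in DNA and activate the Per and Cry genes, whose protein products then hold CLOCK and BMAL1 back. The same pair activates Nr1d1 and Nr1d2, which encode the REV-ERB repressors of Arntl, and Dbp, which encodes an activator that binds D-boxes. In beta cells of mice this clock paces insulin secretion, and islets that lack Bmal1 secrete less insulin. Per1 can in addition be induced through CREB by cAMP, the messenger raised by GLP-1.

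Promoter sequence was at hand for 9 of the 10 genes, in 11 windows of 300 bases that run from 250 bases before a transcript's start to 50 bases from it on (RefSeq, GRCr8 build). They are shown because elements through which clock proteins act on each other's genes can lie there. Both strands were searched for the E-box CACGTG, for the E-prime box CACGTT, for the D-box TTATGTAA, for the cAMP response element TGACGTCA and for AGGTCA, the core of the element of REV-ERB and ROR proteins. Among all 33469 windows, 6.42% held the E-box, 4.83% the E-prime box, 0.893% the D-box, 1.83% the cAMP response element and 16.2% the AGGTCA core. Of the 11 windows of clock genes, 1 held the E-box, 3 the E-prime box, 1 the D-box, 0 the cAMP response element and 2 the AGGTCA core. The matches lay in windows of 5 genes, and the windows of Clock, Per1, Per3 and Dbp held none. Cry1 had no window. Sequence outside the windows was not searched, so a gene without a match here may hold such elements elsewhere. No matches overlapped each other. A match is a run of letters and not a measured binding site. The whole Per2 window (chr9:99496944-99497243, minus strand) follows with its D-box and E-prime box in capitals, beginning 192 and 62 bases before the start.
Per2: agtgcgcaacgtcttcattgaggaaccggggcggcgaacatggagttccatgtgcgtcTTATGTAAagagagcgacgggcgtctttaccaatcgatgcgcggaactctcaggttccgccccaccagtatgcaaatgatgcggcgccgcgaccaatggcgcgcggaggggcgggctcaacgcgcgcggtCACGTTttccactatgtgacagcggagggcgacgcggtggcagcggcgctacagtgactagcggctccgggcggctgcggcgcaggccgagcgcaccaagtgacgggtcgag

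For the other matches 60 bases around the element are given, with the element in capitals. The E-prime box of Cry2 (chr3:98860617-98860676, minus strand) and of the first Nr1d1 window (chr10:84231954-84232013, minus strand) reads on the opposite strand, so it appears as AACGTG. The E-box lies in the second Nr1d1 window (chr10:84229613-84229672, minus strand). The AGGTCA core lies in Arntl (chr1:176766286-176766345, plus strand), 15 bases before the start, and in Nr1d2 (chr15:9954820-9954879, plus strand).
Cry2: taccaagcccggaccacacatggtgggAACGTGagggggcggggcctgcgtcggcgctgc
Nr1d1, first window: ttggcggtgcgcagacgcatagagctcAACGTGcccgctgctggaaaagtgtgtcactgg
Nr1d1, second window: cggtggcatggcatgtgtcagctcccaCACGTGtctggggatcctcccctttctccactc
Arntl: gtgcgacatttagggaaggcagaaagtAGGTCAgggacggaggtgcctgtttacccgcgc
Nr1d2: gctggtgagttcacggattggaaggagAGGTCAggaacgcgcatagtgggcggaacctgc

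Libraries held 9444801 to 10253573 assigned reads in S487D and 10037113 to 10867549 in S487A. Men1 itself was read at 113, 103 and 119 RPKM in S487D, against 71.2, 76.7 and 75.0 in S487A (log2 change 0.58, limma adjusted p = 2.89e-05), and the transgene and the rat gene could not be told apart in this value. The 11 beta cell markers listed were all tested, with summed levels of 17670 to 18860 RPKM in S487D and 5376 to 5922 in S487A. Of 21 markers of fibroblasts, macrophages, endothelium, ducts and acini, 20 stayed at or below 1.17 RPKM in each library, and 9 of these were at 0 throughout. Their summed level was 1.91 to 2.47 RPKM in S487D and 2.47 to 2.88 in S487A. The other marker, Krt7, a keratin of ducts, averaged 82.7 ± 2.0 RPKM in S487D and 217 ± 9.5 in S487A (SD, n = 3 each), and its part in the results below was not tested. In bulk samples, fewer cells of a type and less RNA per cell cannot be told apart. Whether the 3 libraries of a group stem from separate cultures is not in the labels, so the p-values rest on a spread that may be technical.

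S487D cells had more Per1 and Cry2 mRNA and less Dbp, Per3 and Nr1d1 mRNA than S487A cells, all by less than 2-fold. Each of the 10 genes was tested in a fit over 12527 genes, and 2 rose, 3 fell and 5 passed no test (limma, Benjamini-Hochberg adjusted p under 0.05). That is 50% of the clock genes, against 44.4% of all genes tested, and by direction 20.1% of all genes rose and 24.3% fell. The share of clock genes that changed was thus near that of genes in general. The groups did not overlap in 7 clock genes, 2 higher and 5 lower in S487D, against 54.6% of all genes tested, 25.0% higher and 29.5% lower. The median log2 change was -0.10 for the clock genes and -0.01 for all genes tested, and the median absolute change was 0.21 and 0.165.

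**Figure D1:**
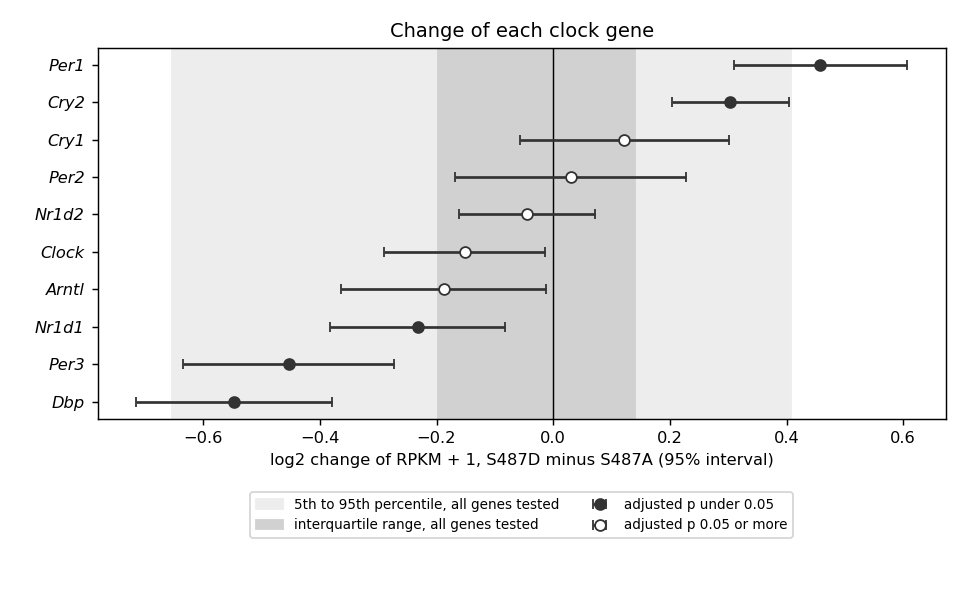
Log2 change of RPKM + 1 in S487D minus S487A for the 10 clock genes, with 95% intervals from limma; filled points passed an adjusted p of 0.05, and grey bands show the middle of all 12527 genes tested. Per1 lies above the 95th percentile of all genes (0.41), Dbp lies inside the 5th (-0.65), and the intervals of Cry1, Per2 and Nr1d2 cross 0.

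The activators of the loop were both lower on average in S487D, without passing the test. Clock, which encodes a DNA-binding protein with acetyltransferase activity, had 11.4, 11.0 and 11.8 RPKM in S487D, against 13.8, 12.4 and 12.2 in S487A. Its groups did not overlap, but the gap between them was small, with a log2 change of -0.15 (95% interval -0.29 to -0.01, limma adjusted p = 0.0715). Arntl, which encodes the partner BMAL1, had 6.67, 5.75 and 7.03 RPKM in S487D, against 7.08, 7.71 and 7.72 in S487A. These groups came close to touching, at 7.03 and 7.08 RPKM, and the log2 change was -0.19 (95% interval -0.36 to -0.01, limma adjusted p = 0.0788). Clock passed the threshold with limma voom on reads worked out from RPKM (adjusted p = 0.012, range over its 16 alternatives 0.012 to 0.215). Arntl passed it without S487D replicate 3 (adjusted p = 0.0482, range 0.0482 to 0.308). The Clock row, at chr14:34446694-34502218 on the plus strand (rn6), shares 6076 bases with the row LOC102556353 on the same strand. That row averaged 4.50 ± 0.24 RPKM in S487D and 6.32 ± 0.77 in S487A (log2 change -0.41, adjusted p = 0.00393), and the sources used here do not say how reads were split between both rows.

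The Period genes moved apart. Per1, at chr10:55681734-55696557 (plus strand), had 9.38, 9.44 and 9.77 RPKM in S487D, against 6.45, 7.28 and 6.29 in S487A. Every S487D library lay above every S487A library. The means were 9.53 ± 0.21 RPKM in S487D and 6.67 ± 0.53 in S487A (SD, n = 3 each), a ratio of 1.43; limma gave a log2 change of 0.46 with an SE of 0.066 and an adjusted p = 0.000453. Of all genes tested, 13.3% had a larger absolute change. Per3, at chr5:168088126-168123482 (minus strand), had 6.27, 5.42 and 5.47 RPKM in S487D, against 9.02, 8.06 and 7.54 in S487A. Here every S487D library lay below every S487A library, with means of 5.72 ± 0.47 RPKM in S487D and 8.21 ± 0.75 in S487A, a ratio of 0.697; limma gave a log2 change of -0.45 with an SE of 0.081 and an adjusted p = 0.00154. Per3 is the Period gene whose loss in mice disturbs the clock least. Per2, whose loss disturbs it strongly, had 4.72, 3.96 and 5.18 RPKM in S487D, against 4.54, 4.49 and 4.42 in S487A. The S487D libraries fell on both sides of the S487A libraries, and the log2 change of 0.03 had a 95% interval from -0.17 to 0.23 (limma adjusted p = 0.809). Per2 turned to -0.04 without S487D replicate 3. Its S487D libraries had an SD of 0.62 RPKM, where their read numbers alone would give 0.27.

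**Figure D2:**
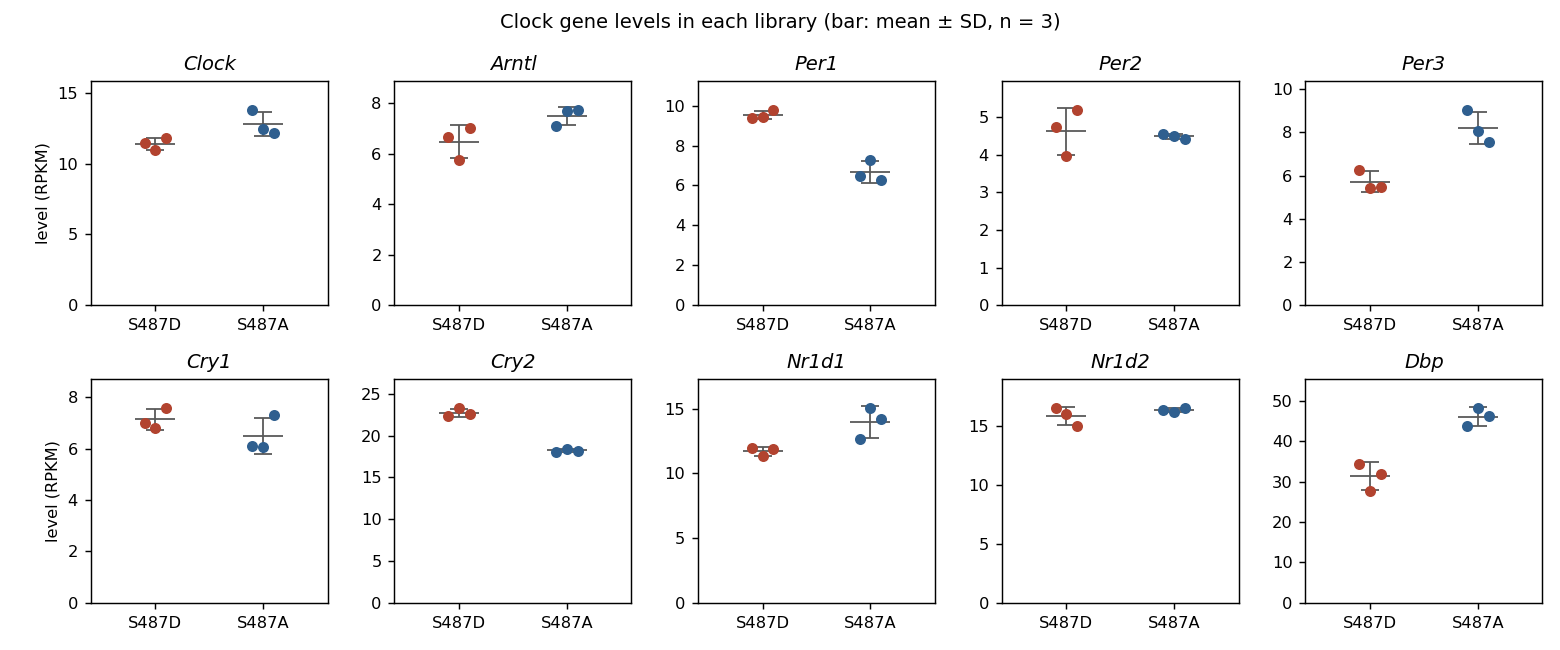
RPKM of the 10 clock genes in each of 3 S487D and 3 S487A libraries (points), with the mean and SD of each group (bars); axes start at 0. The groups lie apart for Clock, Arntl, Per1, Per3, Cry2, Nr1d1 and Dbp and overlap for Per2, Cry1 and Nr1d2.

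Cry2 rose, while Cry1 passed no test. Both encode cryptochromes, the stronger repressors of CLOCK and BMAL1. Cry2, at chr3:81314151-81344109 (minus strand), had 22.3, 23.3 and 22.6 RPKM in S487D, against 18.1, 18.4 and 18.2 in S487A. The groups were tight and lay well apart, with means of 22.7 ± 0.50 RPKM in S487D and 18.2 ± 0.18 in S487A, a ratio of 1.25; limma gave a log2 change of 0.30 with an SE of 0.044 and an adjusted p = 0.000483. The SD of the S487A libraries was below the 0.66 RPKM that their read numbers alone would give. The row LOC102546693 lies inside Cry2 on the other strand and reached at most 0.94 RPKM in a library. The row LOC102551657 lies inside Cry1 on the same strand and reached at most 0.15 RPKM in a library. Cry1 had 7.02, 6.81 and 7.58 RPKM in S487D, against 6.12, 6.06 and 7.29 in S487A. The highest S487A library lay among the S487D libraries, and the log2 change of 0.12 had a 95% interval from -0.06 to 0.30 (limma adjusted p = 0.243).

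Of the REV-ERB genes Nr1d1 fell and Nr1d2 passed no test. Nr1d1, at chr10:86683875-86690815 (minus strand), had 11.9, 11.3 and 11.9 RPKM in S487D, against 12.7, 15.1 and 14.2 in S487A. The groups lay apart, with means of 11.7 ± 0.34 RPKM in S487D and 14.0 ± 1.2 in S487A, a ratio of 0.839; limma gave a log2 change of -0.23 with an SE of 0.067 and an adjusted p = 0.0186. The call was lost without S487D replicate 2 (adjusted p = 0.0602), without S487A replicate 2 (0.0677) and without S487A replicate 3 (0.0553), and after quantile normalization (0.0714) and median centring (0.0632), within a range of 0.0048 to 0.0714. Nr1d1 shares 1061 bases at its end with Thra, a thyroid hormone receptor gene on the other strand, and the library kit does not mark strand, so reads of that stretch cannot be told apart. Thra averaged 16.3 ± 0.31 RPKM in S487D and 20.3 ± 0.98 in S487A, and fell by 0.30 on the log2 scale (limma adjusted p = 0.00126). How far the values of either gene contain reads of the other was not tested. Nr1d2 had 16.6, 16.0 and 15.0 RPKM in S487D, against 16.4, 16.2 and 16.6 in S487A. These groups overlapped, and the log2 change of -0.05 had a 95% interval from -0.16 to 0.07 (limma adjusted p = 0.515), with a positive sign after median centring (0.01).

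Dbp fell by the largest amount of the 10 genes. This gene encodes a PAR bZIP activator whose mRNA swings widely over the day in many tissues and is used as a readout of CLOCK and BMAL1 activity. Dbp, at chr1:101687896-101692845 (plus strand), had 34.4, 27.6 and 32.0 RPKM in S487D, against 43.7, 48.2 and 46.3 in S487A. Every S487D library lay below every S487A library, the nearest at 34.4 and 43.7 RPKM. The means were 31.3 ± 3.4 RPKM in S487D and 46.0 ± 2.2 in S487A, a ratio of 0.68; limma gave a log2 change of -0.55 with an SE of 0.075 and an adjusted p = 0.000324. Of all genes tested, 9.67% had a larger absolute change. Among all genes tested, 3 followed the profile of Dbp over the 6 libraries most closely, by the root mean square difference of log2(RPKM + 1) centred on the S487A mean. They were Irgm, an immunity-related GTPase gene (difference 0.0402), Vmac, which encodes a vimentin-type filament-associated protein (0.0421), and RGD1307782 (0.0433).

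In both groups Dbp was the most abundant of the 10 transcripts per length and Per2 the least. After Dbp came Cry2, Nr1d2, Nr1d1 and Clock in both groups, and of these neighbours in the order the ranges of Nr1d1 and Clock overlapped. Below them the order differed between groups. In S487D it ran Per1, Cry1, Arntl, Per3 and Per2, and the ranges of Cry1 and Arntl and of Arntl and Per3 overlapped. In S487A it ran Per3, Arntl, Per1, Cry1 and Per2, with overlap between each neighbouring pair except Cry1 and Per2. Reads per gene and library ran from 164 (Arntl) to 1290 (Clock). Mean levels stood between the 26.4th (Per2) and the 81.0th (Dbp) percentile of all genes tested. S487D replicate 2 was the lowest of its group for 7 of the 10 genes, against 46.3% of all genes tested.

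Ratios within a library do not depend on how the library was scaled, so 6 ratios of related genes were compared. Per1 over Per3 changed most. Its log2 ratio was 0.58, 0.80 and 0.84 in S487D, against -0.48, -0.15 and -0.26 in S487A. Per1 thus had the higher RPKM of both in each S487D library, and Per3 in each S487A library. Which of both is higher depends on the deposited gene lengths, 8435 bases for Per1 and 5323 for Per3. By reads, Per1 exceeded Per3 in each S487A library as well (546, 667 and 546, against 482, 466 and 413). The change of the ratio between groups does not depend on these lengths. The difference was 1.04 (two-sided exact permutation p = 0.1, adjusted over the 6 ratios 0.2), and 0.1 is the smallest p that 3 libraries against 3 allow. Per1 over Per2 averaged 1.05 ± 0.18 in S487D and 0.57 ± 0.11 in S487A on the log2 scale, and Per2 over Per3 averaged -0.31 ± 0.21 in S487D and -0.87 ± 0.11 in S487A, both without overlap of the groups (exact permutation p = 0.1 each, adjusted 0.2). The Cry1 over Cry2 ratio (-1.67 ± 0.10 in S487D, -1.49 ± 0.15 in S487A; exact permutation p = 0.2, adjusted 0.24) had overlapping groups. So had Nr1d1 over Nr1d2 (-0.44 ± 0.088 in S487D, -0.23 ± 0.13 in S487A; exact permutation p = 0.2, adjusted 0.24). The balance of the activators, Arntl over Clock, averaged -0.82 ± 0.10 in S487D and -0.77 ± 0.17 in S487A, a difference of -0.05 (exact permutation p = 0.6, adjusted 0.6). With 3 libraries a group, no ratio could pass a threshold of 0.05.

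**Figure D3:**
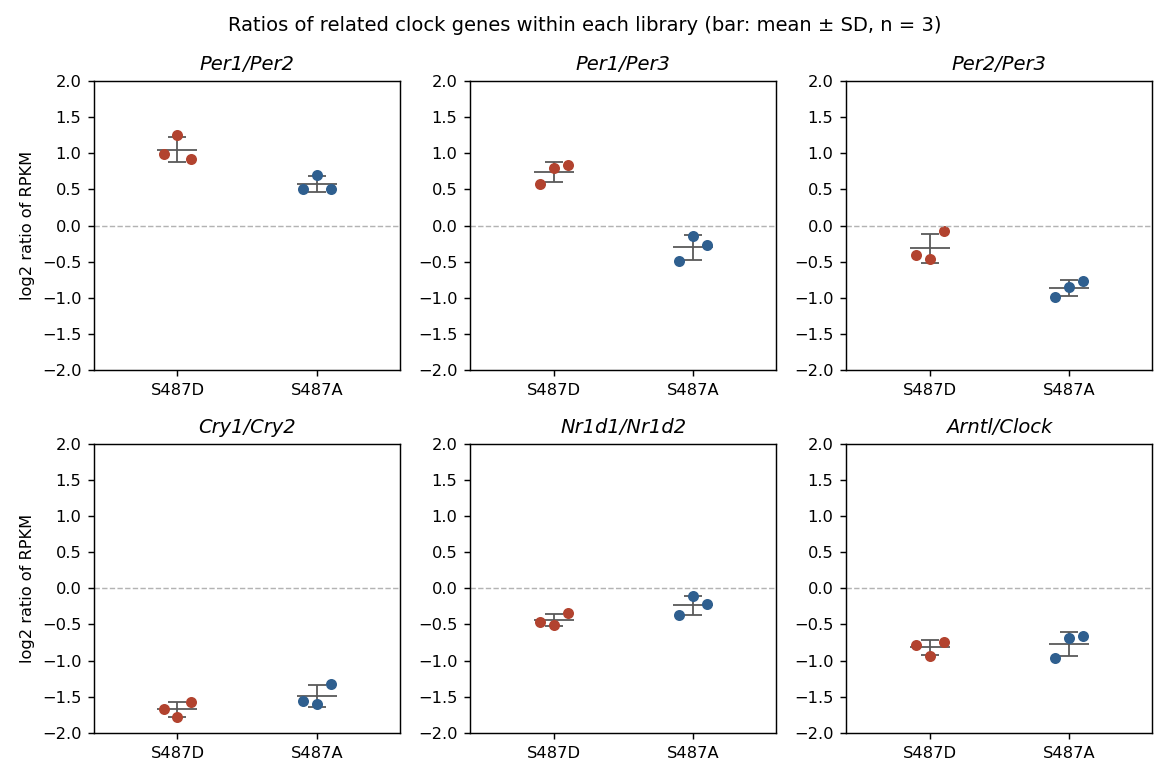
Log2 ratio of RPKM of 6 pairs of related clock genes within each library (points), with the mean and SD of the 3 S487D and 3 S487A libraries (bars); the dashed line marks equal levels. Only for Per1 over Per3 do the groups lie on opposite sides of that line, and their place relative to it depends on the deposited gene lengths.

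Of other factors of the loops, Bhlhe40 and Timeless fell. Of 8 listed, 4 were tested, with a median log2 change of -0.05. Of these, 2 fell and 0 rose, while 2 passed no test (limma, 1 was higher at an unadjusted p under 0.05, and 1 with voom). Over all genes tested, 44.4% passed, 20.1% up and 24.3% down. Bhlhe40, which encodes DEC1, a repressor that competes for E-boxes, had 46.2, 44.9 and 49.4 RPKM in S487D, against 60.1, 65.0 and 69.3 in S487A (log2 change -0.46, limma adjusted p = 0.000212). Its relative Bhlhe41 averaged 26.6 ± 0.85 RPKM in S487D and 24.0 ± 1.4 in S487A (log2 change 0.14, adjusted p = 0.056), and was called up in 6 alternatives. Timeless, a replication fork gene named for its fly relative, also fell (log2 change -0.15, adjusted p = 0.0359), a call lost without any of S487D replicates 1, 2 and 3 and S487A replicates 2 and 3 and in 5 other alternatives (adjusted p up to 0.193). The untested Npas2, Arntl2, Rora and Rorb reached at most 0.68 RPKM in a library. Of the 9 clock output genes listed 8 were found and 6 tested, and none passed the test (limma; 0 at an unadjusted p under 0.05 and 0 with voom). Ppara, below the filter, had 0.27, 0.30 and 0.24 RPKM in S487D, against 0.44, 0.44 and 0.43 in S487A, and with no filter on low values it was called down (log2 change -0.18, limma adjusted p = 0.0328). The other untested gene, Usp2, reached at most 0.34 RPKM in a library. The tested genes include Tef, a PAR bZIP relative of Dbp, at 21.5 ± 0.66 RPKM in S487D and 22.1 ± 0.89 in S487A, and the D-box repressor gene Nfil3 at 6.28 ± 0.49 in S487D and 5.56 ± 0.97 in S487A.

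Genes that set the stability of PER and CRY proteins went both ways. Among 14 genes tested, with a median log2 change of -0.05, 4 rose and 4 fell, while 6 passed no test. That is 57.1% that passed, against 44.4% of all genes tested (20.1% up and 24.3% down). The casein kinases that phosphorylate PER parted: Csnk1e had 34.7, 34.1 and 34.6 RPKM in S487D, against 42.8, 40.9 and 44.3 in S487A (log2 change -0.30, limma adjusted p = 0.00049). Csnk1d averaged 98.1 ± 3.5 RPKM in S487D and 88.6 ± 1.1 in S487A (log2 change 0.14, adjusted p = 0.0155), a call lost without S487D replicate 1 (adjusted p = 0.0639) or 3 (0.0562), within a range of 0.00212 to 0.0639. The subunits of casein kinase 2, Csnk2b and Csnk2a1, rose by 0.38 and 0.115 on the log2 scale (adjusted p = 7.78e-05 and 0.0482), and Csnk2a1 lost its call in 8 of 16 alternatives, among them the replicate block (0.0722) and every library left out except S487A replicate 1. Rbx1, a ring protein of cullin ubiquitin ligases, rose by 0.16. Prkaa2, a catalytic subunit of the energy sensor AMPK, which marks CRY1 for decay, averaged 33.4 ± 1.2 RPKM in S487D and 42.2 ± 2.8 in S487A (adjusted p = 0.00104). Fbxw11, an F-box gene whose product binds phosphorylated PER, fell by 0.22. Its relative Btrc averaged 18.1 ± 0.14 RPKM in S487D and 19.9 ± 0.63 in S487A (log2 change -0.13, adjusted p = 0.0456), a call lost in 10 of 16 alternatives, those without any of S487D replicates 1, 2 and 3 and S487A replicates 2 and 3 included (adjusted p up to 0.233).

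Among 17 cofactor genes of the clock, with a median log2 change of 0.01, 2 rose and 4 fell, while 11 passed no test. That is 35.3% that passed, against 44.4% of all genes tested (20.1% up and 24.3% down). Parts of the NCoR complex through which REV-ERB proteins repress were among the cofactor genes that fell. Tbl1xr1 had 3.83, 3.45 and 3.76 RPKM in S487D, against 8.77, 8.45 and 8.50 in S487A (log2 change -1.03, limma adjusted p = 2.11e-06). Its 20 nearest tested genes on chromosome 2 had a median log2 change of -0.20, and 10 of them fell while 1 rose. Ncor1, the corepressor itself, averaged 27.1 ± 0.87 RPKM in S487D and 31.7 ± 0.72 in S487A (adjusted p = 0.00334). Tbl1x fell by 0.14, a call lost in 6 alternatives, those without S487D replicate 2 or 3 and without S487A replicate 1 or 3 included (adjusted p up to 0.122). Kdm5a, a histone demethylase gene, fell by 0.25. Sfpq, whose product joins the PER complex, rose to 225 ± 4.4 RPKM in S487D, against 176 ± 7.4 in S487A, and Mta2 of the NuRD complex rose by 0.22. Hdac3, the deacetylase of the NCoR complex, averaged 42.1 ± 2.2 RPKM in S487D and 40.0 ± 2.5 in S487A (adjusted p = 0.337).

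Among listed genes that cAMP and calcium can induce, those that passed the test were higher in S487D. Of 11 listed, 7 were tested: 5 rose and 0 fell, while 2 passed no test (limma; 0 of the 7 were lower at an unadjusted p under 0.05, and 0 with voom), with a median log2 change of 0.31. Without S487D replicate 3, 3 rose. Some of these genes were known to be higher in these libraries when the list was made, so its count is no independent evidence. The shares over all genes tested were 20.1% up and 24.3% down. Crem, which encodes a CREB relative, had 6.93, 6.72 and 7.30 RPKM in S487D, against 2.62, 2.28 and 2.47 in S487A (log2 change 1.21, limma adjusted p = 1.66e-06). Sik1, a kinase gene that in mice curbs the shift of the clock by light, had 2.84, 2.90 and 2.88 RPKM in S487D, against 1.02, 1.32 and 1.29 in S487A (log2 change 0.81, adjusted p = 7.86e-05). Ier2 and Nr4a1 rose by 0.31 and 0.45, but Nr4a1 reached 1 RPKM in S487D libraries only and so entered the test through its higher group. Fos, below the filter, had 0.61, 0.79 and 1.07 RPKM in S487D, against 0.19, 0.35 and 0.55 in S487A. Nr4a2, also below the filter, went the other way, with 0.97, 0.70 and 0.99 RPKM in S487D, against 1.08, 1.12 and 0.99 in S487A. Its groups nearly touched, at 0.985 and 0.989 RPKM. The other untested genes of the list, Fosb and Nr4a3, reached at most 0.21 RPKM in a library. Egr1, an immediate early gene, passed no test (adjusted p = 0.416).

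Glucocorticoids can also induce Per1 and reset clocks outside the brain. Of 6 glucocorticoid-related genes listed, 5 were tested: 3 rose and 0 fell, while 2 passed no test (limma; 0 of the 5 were lower at an unadjusted p under 0.05, and 0 with voom). The rises were small, at 0.14 for Fkbp5, 0.18 for Klf9 and 0.16 for the receptor gene Nr3c1 on the log2 scale (limma adjusted p = 0.0275, 0.0355 and 0.0424). With the replicate number as a block, 0 of the 3 passed (adjusted p = 0.0566, 0.0573 and 0.0505), and with any 1 library left out at most 1 did. Tsc22d3, which encodes GILZ, a standard glucocorticoid target, averaged 17.4 ± 1.4 RPKM in S487D and 19.0 ± 1.2 in S487A (adjusted p = 0.186). Over all 6 lists of clock-related genes, 14 of 53 tested genes rose and 10 fell, or 45.3%. That is near the 44.4% of all genes tested (20.1% up and 24.3% down).

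**Figure D4:**
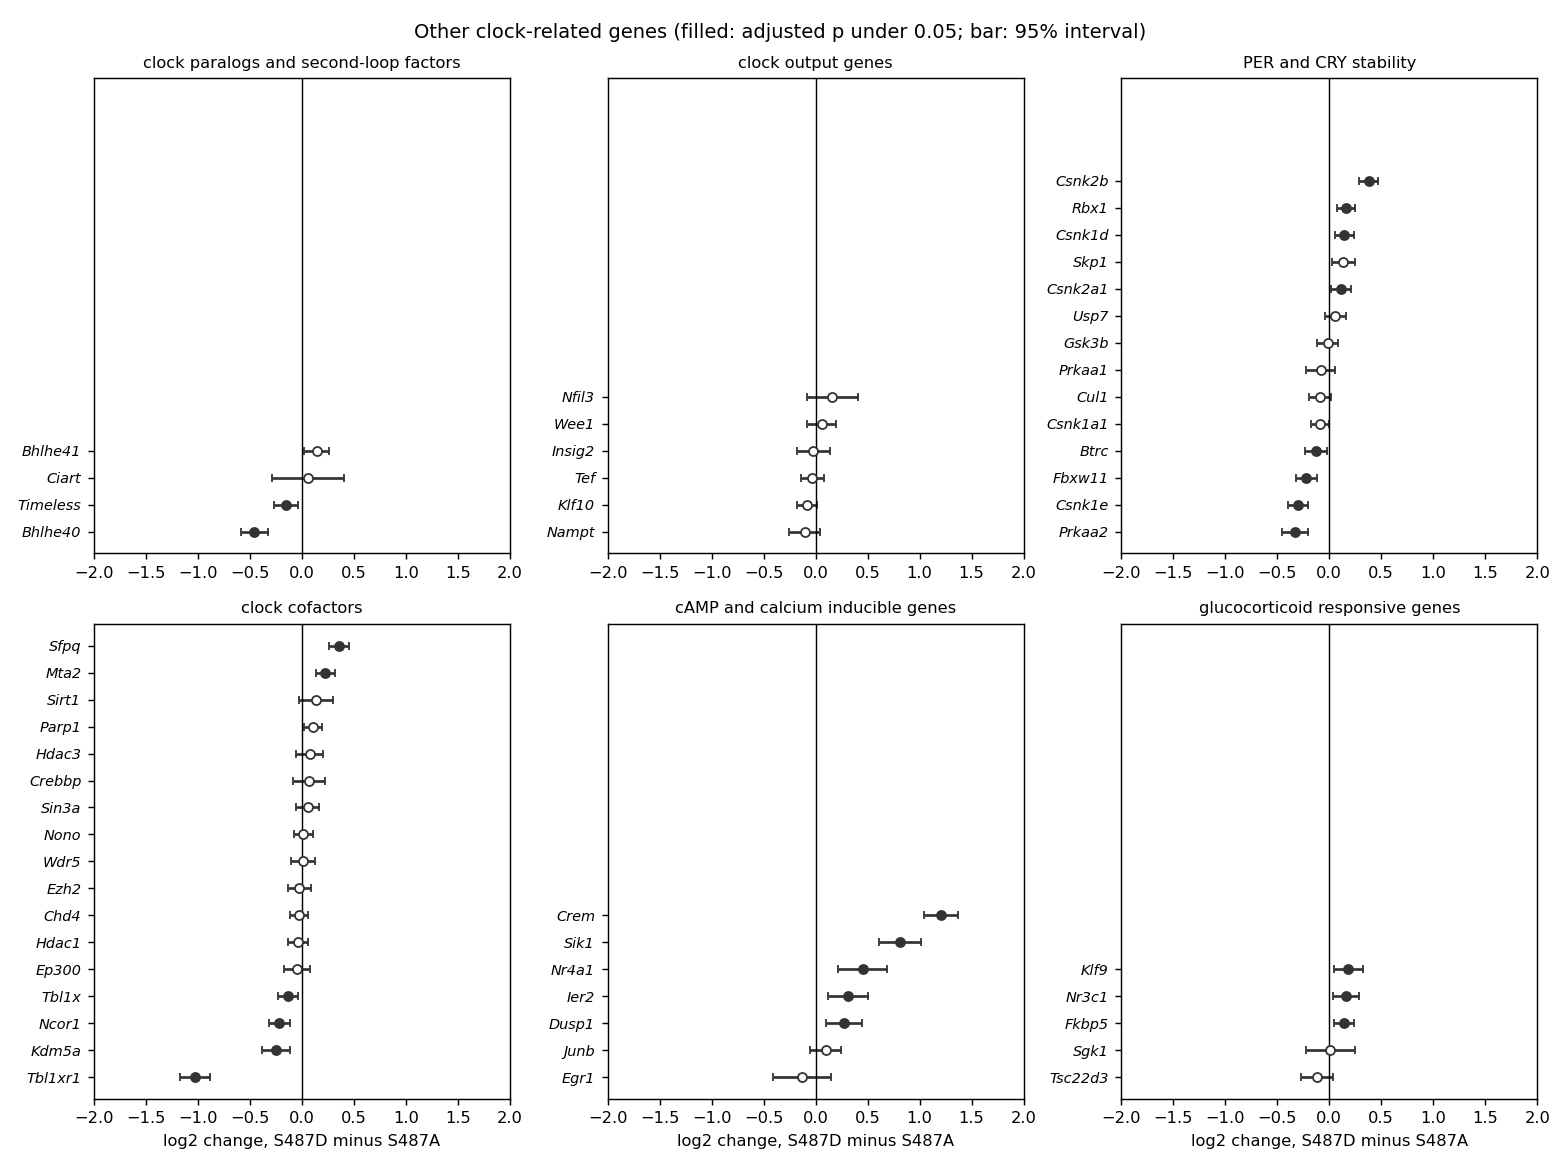
Log2 change of RPKM + 1, S487D minus S487A, with 95% limma intervals for the 53 tested genes of 6 clock-related lists; filled points passed an adjusted p of 0.05. In the cAMP and calcium list 5 of 7 genes are filled on the right of 0, and among the output genes 0 of 6 are filled.

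Each clock gene was set beside its 20 nearest tested genes, 10 on each side. Of the 10 clock genes 7 lay outside the interquartile range of these neighbours: the 5 that passed the test, whose changes that choice makes large, and Clock and Nr1d2, which did not pass. Around Per1 the median log2 change was 0.05, and 20 of 20 neighbours had a lower value than Per1. Around Cry2 the median was -0.05, and 18 of 20 lay below Cry2. Around Dbp the median was 0.01 and around Per3 0.04, and in each case 1 of 20 neighbours lay below the clock gene. Around Nr1d1 the median was 0.06, and 3 of 20 lay below it. The neighbours' medians of the other clock genes ran from -0.01 (Arntl) to 0.10 (Cry1 and Nr1d2).

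**Figure D5:**
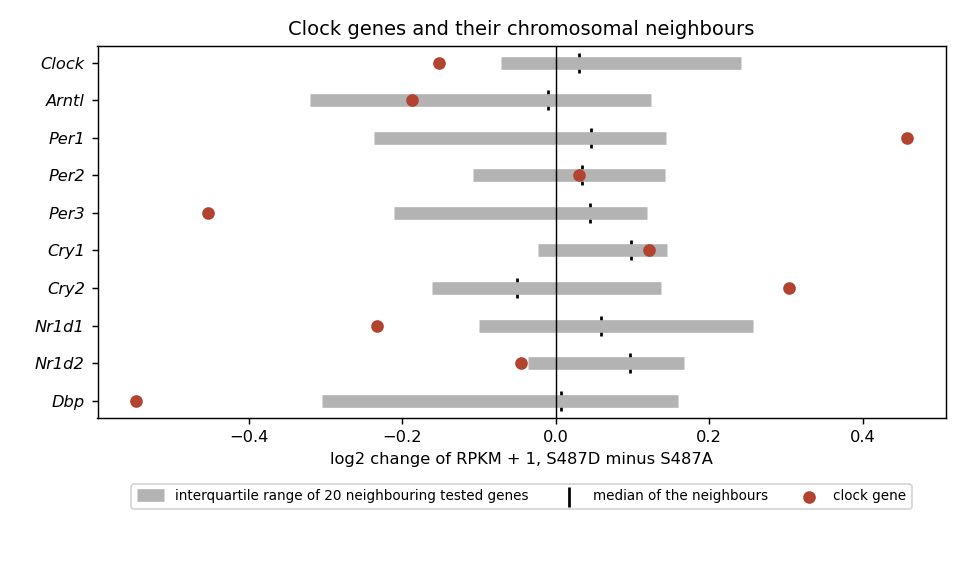
Log2 change of RPKM + 1, S487D minus S487A, of each clock gene (red point) beside the median (tick) and the interquartile range (grey bar) of its 20 nearest tested genes on the chromosome. Per1 and Cry2 lie to the right of the grey bar, and Clock, Per3, Nr1d1, Nr1d2 and Dbp to its left.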

How the data were processed

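Messenger RNA of 6 INS-1 samples was sequenced from TruSeq RNA libraries, a kit that does not mark strand, per the labels' protocols. The submitters' processing notes name bcl2fastq 2.17, cutadapt, TopHat2 2.0.13 and rn6 (Rnor_6.0); counter and annotation are not given in the sources used. The authors deposited RPKM per gene and library. Multiplied by gene length, these values came in whole steps, so reads could be worked out (100% of values up to 2000 reads were whole within a tolerance of 0.05). A single read in 1 kb stood for 0.092 to 0.106 RPKM, and 3 reads, the floor, for 0.276 to 0.318.

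Groups and replicate numbers came from sample titles. The test was limma 3.58.1 (R 4.3.3) with an intensity trend and no covariate, two-sided, on log2(RPKM + 1) of the 12527 genes that reached 1 RPKM in at least 3 libraries, with Benjamini-Hochberg adjustment over all of them and a threshold of 0.05. Fold changes on this scale understate those of low genes; ratios printed as such are of mean RPKM. Intervals are 95% intervals of that fit. Ratios of related genes were compared by exact permutation (scipy 1.17.1). The fit was also run on simulated reads in which far fewer genes changed than passed here, so its outcome may not carry over to these data.

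Alternatives were pseudocounts of 0.1 and 0.01, no filter or one at RPKM 5, median centring, quantile normalization, the 10 most read genes of each library left out, no trend, a replicate block, limma voom on the reads, and each library left out. The text names all clock genes, up to 4 called genes of each list and direction with the smallest p, rows that overlap a clock gene and the 3 genes most like Dbp. Bhlhe41, Npas2, Arntl2, Rora, Rorb, Tef, Nfil3, Ppara, Usp2, Hdac3, Fos, Fosb, Nr4a2, Nr4a3, Egr1, Tsc22d3 and Krt7 were chosen after their values were seen. The members and lists were chosen with earlier results of these data known. Some genes of these lists are not reported here, and 1 listed gene was matched through an older symbol in RefSeq's GRCr8 table.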

Additional observations from a re-analysis of the deposited data

How the results depend on the processing

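Per1, Cry2, Per3 and Dbp kept their direction and passed the threshold in each of 16 alternatives, with log2 changes from 0.42 to 0.54, 0.29 to 0.36, -0.52 to -0.36 and -0.62 to -0.46. The number of clock genes that passed ran from 4 to 6, with 4 after quantile normalization and median centring and 6 with voom. Over all genes, 5564 passed, 4578 to 5965 in the alternatives, 5335 with the replicate block. Upward calls were 45.3% of calls, 55.4% after quantile normalization and 58.9% after median centring, where the median of all genes moved from -0.01 to 0.03 and 0.04. Of the 53 clock-related genes tested, 24 passed, 15 to 22 with a library left out, 15 without S487D replicate 3, and 19 with the block. Per2 turned to -0.042 without S487D replicate 3 (-0.042 to 0.118 over the libraries left out), and Nr1d2 to 0.013 after median centring. The S487D minus S487A difference of the Arntl over Clock log2 ratio turned to 0.006 without S487D replicate 2. It turned to 0.005 without S487A replicate 3, within a range of -0.146 to 0.006, and the cause was not tested. Same-numbered libraries did not deviate together (r = 0.0035, -0.0598 and 0.01 across genes). With only 3 libraries a group, this check cannot decide whether the numbers pair samples. The block changed no call among the 10 clock genes.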
